A study of Mus musculus with 6 samples.

Results

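The genes described here are 10 receptors of the activin, TGF-beta and BMP ligands, namely Acvr1c, Acvr1, Acvr1b, Acvr2a, Acvr2b, Tgfbr1, Tgfbr2, Tgfbr3, Bmpr1a and Bmpr2. They were taken by name from a count table of 46983 genes, and all 10 were found and passed the filter on low counts, beside 17473 genes tested in all. Acvr1c was chosen by its measured difference in counts between the groups compared here, and the others were added as its relatives. The differences of the 10 genes between the groups are therefore given as a description and support no test.

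RNA was sequenced from whole hearts of mouse embryos at E13.5 on a C57BL/6 x DBA/2 background, with 1 heart per library and 3 hearts per group. The mutant hearts (replicates 1, 5 and 10) carried a Tnnt2 Cre transgene and floxed Wt1 alleles. Wt1, a zinc finger transcription factor, was thereby deleted in cells that had used the Tnnt2 driver. The study found strong WT1 expression in epicardial cells and lower levels in some cardiomyocytes of the embryo. The labels call the control hearts (replicates 2, 3 and 5) wild type. By the study's methods the control embryos also carried floxed Wt1 on both alleles, without Cre. The driver acts in the cardiomyocyte lineage and, by the same source, in some proepicardial cells. The study traced a part of the E13.5 epicardium to the Tnnt2 lineage, whereas the RNA came from every cell of the heart. In such RNA, fewer cells of a type and less RNA per cell cannot be told apart.

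Receptors of this family are serine/threonine kinases that work in complexes of type I and type II chains. A ligand binds, the type II chain phosphorylates the type I chain, and the type I chain phosphorylates SMAD proteins that enter the nucleus. The type I chains Acvr1b, Acvr1c and Tgfbr1 act on SMAD2 and SMAD3, the activin and TGF-beta branch, and Bmpr1a and Acvr1 act on the BMP branch of SMADs. In the embryonic heart these pathways are known for cushion formation, growth of the trabecular myocardium and the transformation of epicardial cells.

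The depth lay between 44244665 and 56373393 counts per heart. Cardiomyocyte markers were abundant in every heart, with a summed level of the 8 listed genes between 14760 and 17660 FPKM (the count scaled to the length of the gene and to the total count of the heart). Control replicate 5 stood apart, because the deviation of its genes from their mean level went with gene length (Spearman rho across 11795 genes of -0.556, against values from -0.0622 to 0.464 in the other hearts). Control replicate 3 had high levels of hepatocyte genes, as the 6 listed ones summed to 870.3 FPKM there and to between 1.65 and 23.3 FPKM elsewhere. The source of this RNA was not tested. Erythroid genes summed to 58210 FPKM in control replicate 5 and to 58540 FPKM in mutant replicate 10, and to at most 23130 FPKM in the other hearts. Airway and foregut epithelium genes summed to 9.53 FPKM in control replicate 5 and to 8.65 FPKM in mutant replicate 5. In the other hearts they summed to at most 1.72 FPKM. The deleted gene itself had Wt1 levels of 20.9, 17.3 and 10.2 FPKM in control replicates 2, 3 and 5, and of 9.29, 17.2 and 17.4 FPKM in mutant replicates 1, 5 and 10. The log2 fold change of Wt1 was -0.10 (SE 0.31, adjusted p = 0.991 by edgeR's quasi-likelihood test), and the whole-gene count does not separate the floxed exon from the rest.

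The receptor that differed most was Acvr1c (ENSMUSG00000026834), also known as ALK7, a type I receptor for activin B, GDF3 and Nodal. It lies on the minus strand of chromosome 2, at chr2:58267453-58357895 in GRCm38. Its level was 3.36, 1.58 and 2.56 FPKM in control replicates 2, 3 and 5. In mutant replicates 1, 5 and 10 it was 1.14, 0.865 and 0.754 FPKM. Every mutant heart was thus below every control heart, and the control hearts were spread more widely than the mutant ones. The means were 2.499 ± 0.890 FPKM in controls and 0.919 ± 0.198 FPKM in mutants (SD, n = 3 each).

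These levels rested on few reads, 619, 296 and 376 counts in the controls and 193, 150 and 133 counts in the mutants. On the scale of CPM (counts scaled to the library total after TMM normalization), the log2 fold change of Acvr1c was -1.42 (SE 0.29), a level 2.68 times lower in the mutant hearts. Control replicate 2 had the highest value, and without it the log2 fold change was -1.15. Without control replicate 3, the heart with high levels of hepatocyte genes and the lowest control value, it was -1.67. Without control replicate 5, it was -1.39, and with each heart's trend with gene length removed it was -1.49. The direction was the same in all 20 other settings that were run, and the smallest size, -0.84, came from the fit on log2(FPKM + 1), a scale that compresses low genes.

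**Figure D1:**
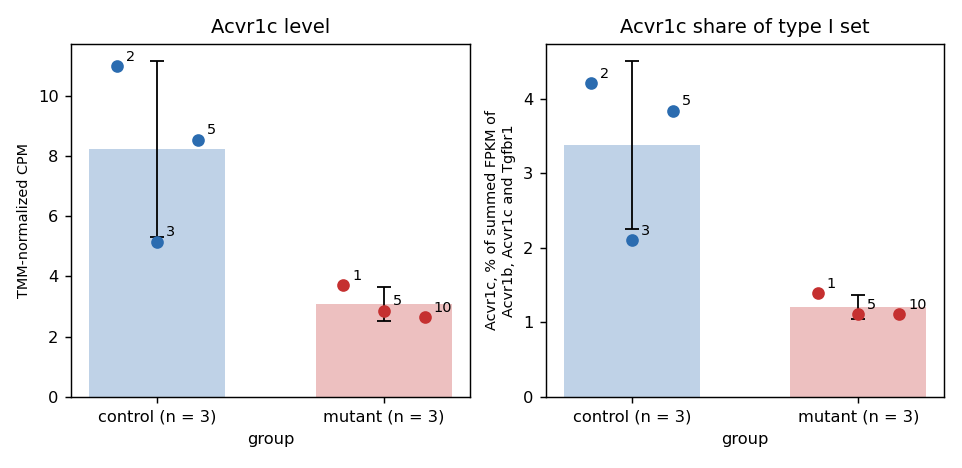
Acvr1c in each heart, as TMM-normalized CPM (left panel) and as a percentage of the summed FPKM of Acvr1b, Acvr1c and Tgfbr1 (right panel). Points are hearts with their replicate numbers, bars are group means and error bars the SD (n = 3); the mutant hearts lie between 2.64 and 3.71 CPM, and the lowest control heart, replicate 3, lies at 5.15 CPM.

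Most listed markers of the atria and the sinus venosus had log2 fold changes below 0. Of 8 atrial myocardium genes, 7 were below 0 (Myl4 was at 0.02), the median of the list was -0.45, and 3 did not overlap between the groups, beside 4.59% of all genes that were lower without overlap. Of 6 sinus venosus genes, 5 were below 0 (Hcn4 was at 0.08), the median was -0.31, and 3 were lower without overlap. With edgeR, 0 genes of either list had an adjusted p under 0.05, and an unadjusted p under 0.05 was given to 5 atrial and 3 sinus venosus genes (2.59% of all genes were lower at that p). DESeq2 gave 2 atrial genes and 1 sinus venosus gene as lower at an adjusted p under 0.05, beside 0.66% of its genes in either direction. The summed level of the sinus venosus list was between 87.3 and 101.9 FPKM in controls and between 73.2 and 84.9 FPKM in mutants. That of the atrial list was between 4703 and 6408 FPKM in controls and between 4011 and 5195 FPKM in mutants, so that the atrial sums overlapped. In the heart with high levels of hepatocyte genes, control replicate 3, the atrial sum and Acvr1c were the lowest of the controls. Its sinus venosus sum was the highest of all hearts (101.9 FPKM). Control replicate 5 had the highest atrial sum (6408 FPKM), and control replicate 2 the highest Acvr1c. Mutant replicate 10 had the highest atrial sum of the mutants (5195 FPKM) and their lowest Acvr1c. The part of these marker levels in the Acvr1c values was not tested.

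The Acvr1c transcript could be placed by the study's own quantitative PCR primers, which are shown because they mark the piece of the mRNA that the assay amplifies. The forward primer lies in exon 6 at chr2:58283395-58283414 and the reverse primer in exon 8 at chr2:58280332-58280352 (GRCm38, minus strand). They enclose 189 bases of a transcript of 9162 bases with 9 exons, and 4 of the 5 annotated Acvr1c transcripts hold both. With this assay the study reported significantly less Acvr1c in mutant than in control hearts at E13.5.
Acvr1c forward: cagaatcctaaagtgggaac
Acvr1c reverse: catgtcatagtaaggcaactg

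The window around the Acvr1c start site is shown because the deleted gene encodes a DNA-binding protein. It runs from 250 bases before to 50 bases after the start (RefSeq, GRCm38.p6, minus strand, chr2:58357709-58358008), and 79% of its bases are G or C. The motif GCGTGGG, a core that the zinc fingers of WT1 and of the EGR proteins bind in vitro, was looked for on both strands (CCCACGC on the reverse) and is in capitals. The motif was chosen after the windows had been read.
Acvr1c: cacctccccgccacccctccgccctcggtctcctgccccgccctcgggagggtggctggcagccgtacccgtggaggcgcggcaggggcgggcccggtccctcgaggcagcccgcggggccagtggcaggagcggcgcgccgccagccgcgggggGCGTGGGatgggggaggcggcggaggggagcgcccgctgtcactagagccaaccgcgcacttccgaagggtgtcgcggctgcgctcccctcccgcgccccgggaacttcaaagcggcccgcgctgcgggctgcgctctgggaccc
Among 11 windows of 9 receptors, it was found in 2, that of Acvr1c and that of Tgfbr2 (minus strand, chr9:116175314-116175613, with 59% G or C). The second Acvr1c start, which lies within the gene, did not hold it.
Tgfbr2: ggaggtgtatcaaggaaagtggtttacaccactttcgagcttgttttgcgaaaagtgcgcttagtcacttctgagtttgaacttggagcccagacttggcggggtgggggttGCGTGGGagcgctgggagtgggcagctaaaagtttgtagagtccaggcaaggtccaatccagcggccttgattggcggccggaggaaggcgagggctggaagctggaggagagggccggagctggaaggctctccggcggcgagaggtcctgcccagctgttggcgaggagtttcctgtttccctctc
The same motif was in 5.04% of all 32817 windows, and in 14.9% of the 3146 windows with at least 70% G or C. Tgfbr3 had no window in the table used.

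The other type I receptors had higher levels and smaller differences. Tgfbr1, the type I receptor for TGF-beta ligands, had 60.2, 57.5 and 50.7 FPKM in control replicates 2, 3 and 5. In mutant replicates 1, 5 and 10 it had 65.0, 60.2 and 50.9 FPKM. The lowest Tgfbr1 value of each group was in a heart with high erythroid RNA, and the groups overlapped (log2 fold change 0.09, SE 0.11). The part of erythroid RNA in these values was not tested. Acvr1b, or ALK4, the main type I receptor for activins, had 16.1, 16.3 and 13.48 FPKM in the controls. It had 15.6, 17.0 and 16.4 FPKM in the mutants, so only control replicate 5 lay away from the rest (log2 fold change 0.12, SE 0.11).

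Acvr1c was thus the smallest part of the type I receptors that act on SMAD2 and SMAD3. It made up 4.21%, 2.10% and 3.84% of their summed FPKM in control replicates 2, 3 and 5, and 1.39%, 1.11% and 1.11% in mutant replicates 1, 5 and 10. The sum of all these type I receptors was 73.95 ± 6.64 FPKM in controls and 75.95 ± 7.11 FPKM in mutants (SD, n = 3 each), and the groups overlapped.

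Of the type I receptors of the BMP branch, Bmpr1a (ALK3), which the myocardium is known to need for cushion formation and trabecular growth, had the highest level of all 10 genes. It had 81.5, 79.7 and 67.6 FPKM in control replicates 2, 3 and 5. In mutant replicates 1, 5 and 10 it had 81.7, 88.2 and 81.0 FPKM. Control replicate 5 was low and mutant replicate 5 high, and the others were within a few FPKM of each other (log2 fold change 0.16, SE 0.11). Acvr1 (ALK2), a BMP receptor of the cushions, had 20.9, 18.3 and 13.4 FPKM in controls and 19.5, 19.6 and 17.5 FPKM in mutants. Its log2 fold change was 0.13 (SE 0.15) and became -0.02 without control replicate 5.

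Among the type II receptors, Tgfbr2, which binds TGF-beta ligands, differed most. It had 14.0, 14.3 and 16.1 FPKM in control replicates 2, 3 and 5. In mutant replicates 1, 5 and 10 it had 16.0, 20.9 and 18.5 FPKM. Mutant replicate 1 was just under control replicate 5, and the other mutant hearts were above all controls. The log2 fold change of Tgfbr2 was 0.35 (SE 0.13), 0.43 without control replicate 5 and 0.23 with the length trend removed.

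Bmpr2, the type II receptor of BMP ligands, had 21.5, 19.5 and 12.7 FPKM in control replicates 2, 3 and 5. In mutant replicates 1, 5 and 10 it had 18.2, 23.1 and 17.7 FPKM. Control replicate 2 was above 2 of the 3 mutant hearts, and the log2 fold change went from 0.16 (SE 0.19) to -0.02 without control replicate 5. Acvr2a, a receptor for activins and related ligands, had 11.03, 10.5 and 9.03 FPKM in controls and 10.4, 11.4 and 9.62 FPKM in mutants. Its hearts were close together (log2 fold change 0.07, SE 0.11). Acvr2b, which shares these ligands and is known for its part in left-right patterning, had 5.22, 3.84 and 2.80 FPKM in controls and 3.76, 4.14 and 3.88 FPKM in mutants. The controls enclosed all mutant hearts, and the log2 fold change of 0.02 (SE 0.22) became -0.17 without control replicate 5.

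Tgfbr3, or betaglycan, is the co-receptor that presents TGF-beta ligands and inhibin and is known to be needed for coronary vessels. It had 27.4, 22.3 and 14.0 FPKM in control replicates 2, 3 and 5, and 25.8, 31.0 and 22.8 FPKM in mutant replicates 1, 5 and 10. Apart from control replicate 5 the groups were interleaved, and the log2 fold change of Tgfbr3 was 0.35 (SE 0.22) with that heart and 0.13 without it.

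**Figure D2:**
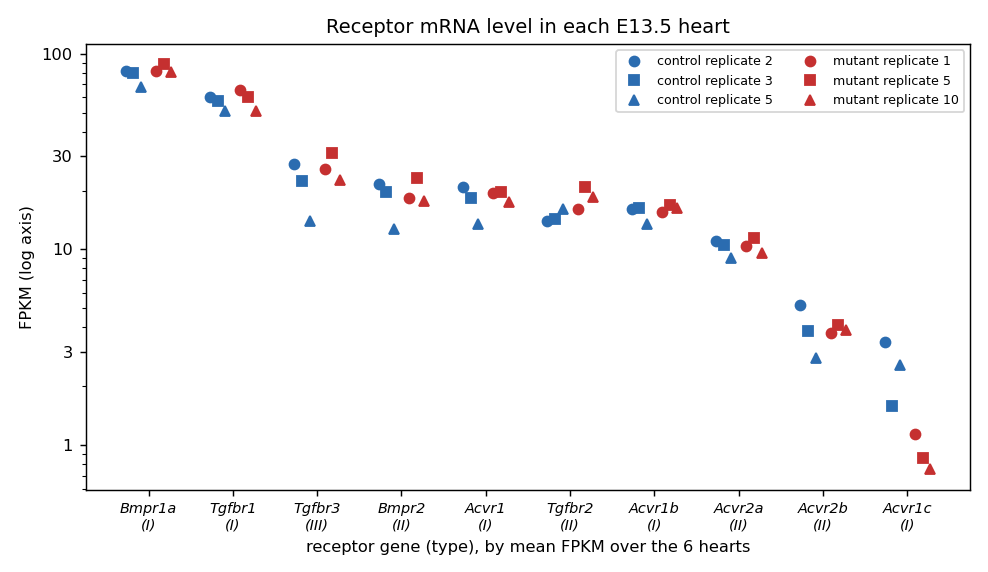
FPKM of the 10 receptor genes in each heart on a log axis, ordered by the mean over the 6 hearts, with the receptor type in brackets and 1 symbol per heart. Levels run from 80.0 FPKM for Bmpr1a to 1.71 FPKM for Acvr1c on average, and control replicate 5 (blue triangle) is low for most genes.

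Ordered by the mean FPKM of the 6 hearts, the receptors followed as Bmpr1a (80.0), Tgfbr1 (57.4), Tgfbr3 (23.9), Bmpr2 (18.8), Acvr1 (18.2), Tgfbr2 (16.6), Acvr1b (15.8), Acvr2a (10.3), Acvr2b (3.94) and Acvr1c (1.71). Of the 9 pairs of neighbours in this order, 6 were in the same order in every heart. Bmpr2 was above Acvr1 in 4 of 6 hearts, Acvr1 above Tgfbr2 in 3 of 6 and Tgfbr2 above Acvr1b in 4 of 6, so the neighbours among these genes did not differ in deposited FPKM beyond the spread between hearts. The order depended on the gene length used. When counts were divided by all annotated exon bases of a gene, Acvr1b moved from rank 7 to rank 3, above Tgfbr3 in every heart, and Bmpr2 from rank 4 to rank 7. Bmpr1a and Tgfbr1 stayed at the top and Acvr2b and Acvr1c at the bottom. The summed FPKM of the type I genes was 3.59 ± 0.0611 times that of the type II genes in controls and 3.42 ± 0.335 times in mutants (SD, n = 3 each).

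Read by heart, control replicate 5 had the lowest normalized value for 8 of the 10 genes, and mutant replicate 5 the highest for 5. The share of all genes with the same lowest or highest heart was not counted, so nothing particular to the receptors is read from these counts. In both hearts the deviation of genes across the whole table went with gene length, in opposite directions (rho of -0.556 and 0.464). Control replicates 2 and 3 also had positive values (rho of 0.383 and 0.316). The spread within groups, as a pooled SD of log2 CPM, was smallest for Bmpr1a (0.10) and largest for Acvr1c (0.43). Across all 6 hearts, 9 of the 10 log2 fold changes were above 0, where 49.8% of all genes tested were. Without control replicate 5, however, 5 of the 10 were below 0, and the median of the 10 went from 0.13 to 0.02 (all genes tested, -0.0010 and 0.0039).

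**Figure D3:**
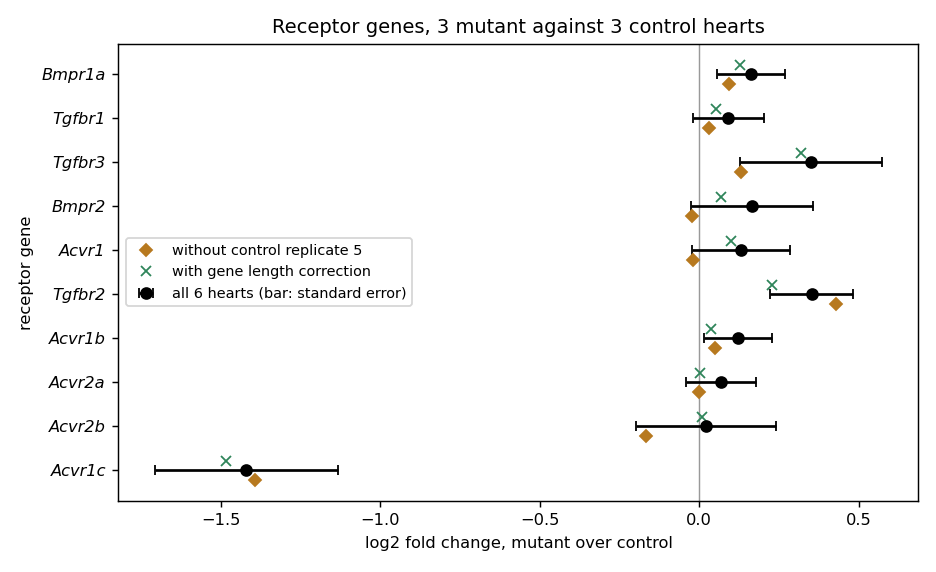
Log2 fold change of each receptor gene, mutant over control, with all 6 hearts (black, bar for the standard error), without control replicate 5 (brown) and with the trend with gene length removed (green). Acvr1c lies at -1.42 and between -1.49 and -1.39 in these 3 fits, whereas the other genes lie between -0.17 and 0.43.

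With edgeR's quasi-likelihood test, 0 of the 10 receptors had an adjusted p under 0.05, and percent called over all genes was 0. At an unadjusted p under 0.05 edgeR gave 2 of the 10 (Acvr1c and Tgfbr2), beside 5.73% of all genes. DESeq2 gave 1 of the 10 (Acvr1c) at an adjusted p under 0.05, beside 0.66% of its genes, and limma-voom gave 0. Without control replicate 5, edgeR again gave 0 of the 10 at an adjusted p under 0.05 (0.247% of all genes) and DESeq2 gave 2, Acvr1c and Tgfbr2 (2.52% of all genes). With the length trend removed edgeR gave 0 (0.0343% of all genes), as it did without a filter on low counts (0.127% of all genes). In 1 of the 10, Acvr1c, the groups did not overlap in normalized counts, beside 11.2% of all genes in either direction, 4.59% lower and 6.61% higher in the mutants. The choice of Acvr1c used this comparison, so nothing is read from these counts.

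Reads on shared exons may have been counted for either gene or for neither. The strand setting of the counting, which bears on genes on opposite strands, is not given in the sources used here. Exons of 4 receptors overlapped those of another gene. Acvr1c shared 1.81% of its exon bases with the antisense gene Gm13544, which had 0 counts in every heart. Acvr2a shared 7.84% with Orc4 and Bmpr1a 4.57% with Gm17110, both on the opposite strand, and Tgfbr3 shared 4.54% with Gm43422 on its own strand.

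The neighbours of Acvr1c on chromosome 2 had smaller fold changes. Acvr1 is itself the next protein-coding gene, 30.7 kb away on the same strand, and had a log2 fold change of 0.13. Within 500 kb, the other genes that passed the filter were Galnt5 (log2 fold change -0.36, SE 0.28), Cytip (0.77, SE 0.60), Upp2 (-0.16, SE 0.23) and Ccdc148 (0.05, SE 0.28). The groups overlapped for each of them.

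Over the 6 hearts, the gene whose log2 CPM followed that of Acvr1c most closely was B230312C02Rik, a long non-coding RNA (Pearson r of 0.996). Fra10ac1 (0.991), Gm15867 (0.984), Gm7665 (0.982) and Acaa1b (0.982) came next. These values describe 6 libraries in 2 groups that share depth and genotype with each other, and they were the highest r of all genes tested. All 5 genes were lower in every mutant heart than in every control heart, by less than Acvr1c. Their log2 fold changes ran from -0.84 for Acaa1b to -0.21 for Fra10ac1. The 5 were chosen by their likeness to Acvr1c, so the lack of overlap largely follows from that choice. Of all genes tested, 4.59% were lower without overlap. Counts per heart were few for Acaa1b (15 to 39), Gm15867 (26 to 63) and B230312C02Rik (37 to 71). Of the other receptors, Tgfbr2 had the lowest r with Acvr1c (-0.767) and Acvr2b the one nearest to 0 (-0.00761).

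The rest of the pathway was described with 7 lists, 106 genes in the tables, of which 97 passed the filter. With edgeR, 0 of these had an adjusted p under 0.05 in either direction. At an unadjusted p under 0.05, edgeR gave 4 higher and 7 lower (3.14% and 2.59% of all genes tested). DESeq2 gave 1 higher and 1 lower at an adjusted p under 0.05 (0.66% of its genes in either direction). The groups did not overlap for 5 of the 97 genes that were higher and 6 that were lower (6.61% and 4.59% of all genes tested). The median log2 fold change of the 97 genes was -0.02, with -0.0010 over all genes tested.

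The ligands named above for Acvr1c, activin B, GDF3 and Nodal, had low mRNA levels. Nodal had at most 0.0431 FPKM in any heart, and Gdf3 at most 0.375 FPKM. Inhbb, the activin B chain, had 0.775, 0.955 and 0.659 FPKM in controls and 0.631, 1.04 and 1.36 FPKM in mutants, and the groups overlapped (log2 fold change 0.39, SE 0.31). Inhba, which encodes the activin A chain, had 3.22 ± 1.38 FPKM in controls and 3.12 ± 1.08 FPKM in mutants (SD, n = 3 each). Inha, the inhibin alpha chain, had the smallest edgeR p of the 7 activin and nodal group ligands tested. It had 6.02, 5.80 and 6.34 FPKM in controls and 5.68, 3.47 and 3.64 FPKM in mutants (log2 fold change -0.48, SE 0.20, edgeR adjusted p = 0.847). The groups did not overlap, and mutant replicate 1 was close to the controls. The ligands of this group with the highest levels were Gdf11 (log2 fold change -0.06, SE 0.17) and Mstn, or myostatin (0.11, SE 0.46).

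Of the TGF-beta ligands and latency proteins, the genes with the highest levels were Ltbp1, which stores latent TGF-beta in the matrix, with a log2 fold change of 0.04 (SE 0.24), and Tgfb2, the ligand of the cushions, with -0.04 (SE 0.17). Ltbp2 had the smallest p in this list, and its value of 0.99 (SE 0.34) had an edgeR adjusted p of 0.761. Among 12 BMP group ligands tested, 4 were above 0 and 8 below. Bmp10, the ligand of the trabecular myocardium, had 37.7, 36.9 and 27.5 FPKM in controls and 42.1, 54.0 and 36.4 FPKM in mutants. On the scale of normalized counts its groups did not overlap, with a log2 fold change of 0.40 (SE 0.17, edgeR adjusted p = 0.847). Bmp7, the BMP ligand with the highest level, had a log2 fold change of 0.02 (SE 0.11).

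The extracellular inhibitors included the only pathway gene that DESeq2 gave as lower. Fst encodes follistatin, which binds activins and keeps them from their receptors. It had 4.84, 4.64 and 4.61 FPKM in controls and 3.39, 1.94 and 2.30 FPKM in mutants. All mutant hearts were below the controls, which were close together. Its log2 fold change was -0.86 (SE 0.20), with an adjusted p of 0.405 by edgeR and 0.0163 by DESeq2. Leaving out control replicate 2 or 3 or mutant replicate 5 or 10 took the DESeq2 adjusted p above the threshold (up to 0.303). Nbl1, a BMP antagonist, was likewise lower in every mutant heart (log2 fold change -0.59, SE 0.14, adjusted p = 0.456 by edgeR). Twsg1, a BMP-binding protein with the highest level of this list, had a log2 fold change of 0.08 (SE 0.10).

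Other receptors and co-receptors, 12 of them tested, lay between -0.47 and 0.26. Eng, the endothelial co-receptor endoglin, had 0.26 (SE 0.14), Bambi, a decoy receptor without a kinase, had -0.05 (SE 0.18), and Rgma, a BMP co-receptor, had -0.47 (SE 0.24, edgeR adjusted p = 0.928). The 22 SMADs and intracellular regulators had the narrowest range of all lists, from -0.23 to 0.16, with a median of 0.01. Tgif1, a SMAD corepressor, was at its lower end (SE 0.14, edgeR adjusted p = 0.957). Fkbp1a, which binds type I receptors and holds them inactive, had -0.01 (SE 0.11), and Strap, a receptor-binding regulator, had -0.02 (SE 0.11).

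Of 22 genes known as targets of these pathways, 11 had log2 fold changes above 0 and 11 below. They ran from -0.65 to 0.95, with a median of 0.002. At an unadjusted p under 0.05, edgeR gave 2 higher and 3 lower (3.14% and 2.59% of all genes tested). The groups did not overlap for 3 that were higher and 3 that were lower (6.61% and 4.59% of all genes tested). At an adjusted p under 0.05, DESeq2 gave 1, Lox, as higher (0.66% of its genes in either direction). It was in the study's own list of changed genes, which was known when the lists were written, so it is no independent evidence of a direction. Lox, which encodes the enzyme that cross-links collagen, had 13.9, 15.3 and 13.52 FPKM in controls and 17.8, 26.8 and 23.0 FPKM in mutants. Its log2 fold change was 0.69 (SE 0.16), with an adjusted p of 0.385 by edgeR and 0.0180 by DESeq2. As for Fst, leaving out control replicate 2 or 3 or mutant replicate 5 or 10 took the DESeq2 adjusted p above the threshold (up to 0.416). Col1a1, a collagen chain, had a log2 fold change of 0.95 (SE 0.29, edgeR adjusted p = 0.652), and Acta2, smooth muscle actin, 0.08 (SE 0.14). Fst and Col1a1 were also in the study's list.

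**Figure D4:**
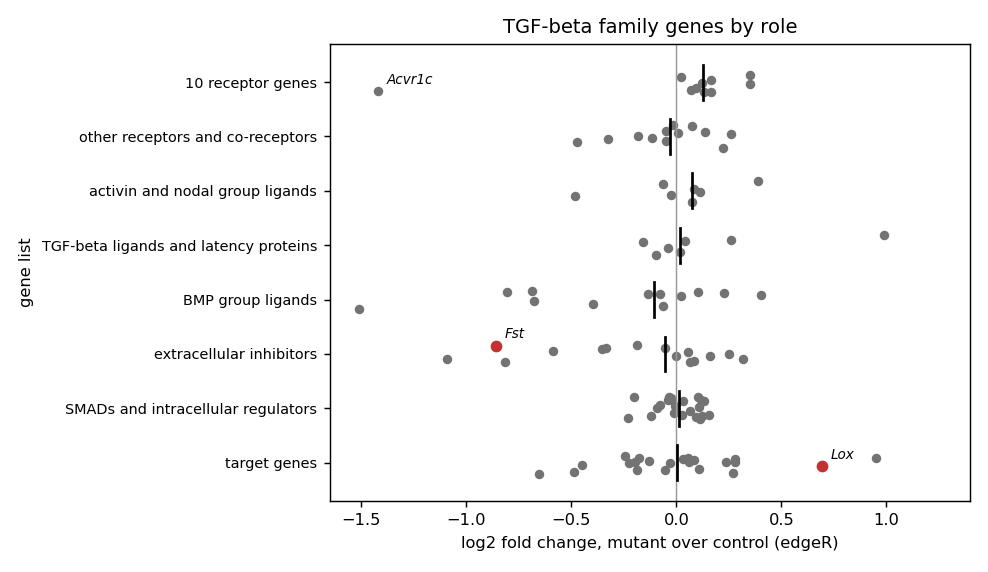
Log2 fold change of the 10 receptor genes and of the tested genes of each pathway list, mutant over control, by edgeR. Each point is a gene, black lines are list medians and red points are pathway genes with a DESeq2 adjusted p under 0.05; Fst lies at -0.86 and Lox at 0.69, and the SMADs lie between -0.23 and 0.16.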

How the data were processed

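Whole-heart RNA of 3 control and 3 mutant embryos was measured, with 1 heart per library, so p-values reflect the spread between these embryos. After trimming and alignment to mm10 with STAR, the authors deposited the raw count of uniquely mapped reads on each gene. Their methods name featureCounts for the counting, whereas the submitters' processing notes name HTSeq, along with DESeq2. The authors also deposited FPKM values, which equal the count over 1 fixed length per gene and over the total count of the heart (largest relative deviation 6.1e-14). That length is shorter than the sum of a gene's exons for all 10 receptors. Copies of both tables without gene names hold the same values and were not used, as was a table of group means of FPKM. No depositor's fold changes were used.

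Counts were tested with edgeR 4.0.16 in R 4.3.3 (quasi-likelihood test, TMM, filterByExpr at its defaults, with at least 10 counts in enough hearts and 15 in total, two-sided, Benjamini-Hochberg adjusted p under 0.05 over all genes tested). The standard error is the log2 fold change over the square root of F. Alternatives were DESeq2 1.42.0, which the study's methods name, limma 3.58.1 (voom, and trend fits on log2 FPKM with 1 or 0.1 added), other size factors, no filter, offsets that remove each heart's trend with gene length (span 0.5), and each heart left out. The fits were tested on simulated data. An exact permutation test of 3 against 3 hearts cannot go below p = 0.1 and was not used. The libraries had no stated molecular identifiers, so reads may include copies of 1 molecule.

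The receptors and all gene lists were chosen with earlier results of these data, and the study's list of changed genes, known. Named in the text are the 10 receptors, Wt1, in each pathway list the genes called by edgeR or DESeq2 or else the gene with the smallest p, the 2 genes of each list with the highest FPKM, and the 5 genes most correlated with Acvr1c. Nodal, Gdf3, Inhbb, Inhba and the neighbours of Acvr1c were added after their values were seen. Positions, exons and transcripts are from GENCODE M21 (GRCm38), which held 46488 of the genes by identifier. Start-site windows are from RefSeq. A gene of the pathway lists is not reported here.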

Additional observations from a re-analysis of the deposited data

How the results depend on the processing

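The count of genes with an adjusted p under 0.05 depended on the tool and on control replicate 5. With edgeR it was 0 over all genes, 34 without a filter on low counts, 6 with the length trend removed, and from 0 to 44 with 1 heart left out, the 44 being without control replicate 5. With DESeq2 it was 132 (77 higher and 55 lower in the mutants), and from 71 without mutant replicate 5 or 10 to 447 without control replicate 5. The limma fits (voom and both trend fits) and the other size factors gave 0. Of the 10 receptors, DESeq2 gave 1, and from 1 to 2 with 1 heart left out, and every edgeR and limma fit gave 0. Of the pathway genes, DESeq2 gave 2, and from 0 without mutant replicate 10 to 4 without control replicate 5 or mutant replicate 1, and every edgeR and limma fit gave 0. The cause of these differences was not tested. DESeq2 with hearts left out and levels by all exon bases were chosen after seeing the data.

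Acvr1c was below 0 in all 20 settings, from -1.67 to -0.84, and Acvr2b in 7, from -0.17 to 0.27. Bmpr2, Acvr1 and Acvr2a were each below 0 in 2 settings, those without control replicate 5, and the remaining 5 receptors were above 0 in all 20. Of the pairs of neighbouring receptors by level, 6 were in 1 order in every heart by deposited FPKM and 6 by all exon bases. They were not the same pairs. Bmpr1a above Tgfbr1, Acvr2a above Acvr2b, and Acvr2b above Acvr1c were among them both times. Bmpr2 was above Acvr1 in 4 of 6 hearts by deposited FPKM, whereas Acvr1 was above Bmpr2 in 6 of 6 by all exon bases. No paired analysis was possible because the groups share only the replicate number 5. With 133 to 619 counts per heart, Acvr1c carries more counting error than most of the other receptors.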

Other observations

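Of the macrophage list, 9 of 10 genes had log2 fold changes above 0 (Mrc1 was at -0.19), with a median of 0.69. The summed level of the list was 88.4 to 99.2 FPKM in mutants and 49.6 to 69.3 FPKM in controls. By edgeR's quasi-likelihood test, 0 of these 10 genes had an adjusted p under 0.05, and 9 were higher at an unadjusted p under 0.05, beside 3.14% of all genes. DESeq2 gave 4 as higher at an adjusted p under 0.05, beside 0.66% of its genes in either direction.

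Of the platelet and megakaryocyte list, 6 of 6 genes were above 0, with a median of 0.71 and a summed level of 49.2 to 70.1 FPKM in mutants and 29.5 to 43.4 FPKM in controls. EdgeR gave 0 of these at an adjusted p under 0.05 and 4 as higher at an unadjusted p under 0.05, beside 3.14% of all genes. DESeq2 gave 2 as higher at an adjusted p under 0.05, beside 0.66% of its genes in either direction. The ventricular list had 6 of 6 genes above 0 (median 0.19) and the endothelial list 9 of 10 (median 0.25, with Egfl7 at -0.28). At an adjusted p under 0.05, edgeR and DESeq2 gave 0 genes of either list. At an unadjusted p under 0.05, edgeR gave 1 of each as higher, beside 3.14% of all genes. The part of these marker levels in the receptor values was not tested.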
